A study of Mus musculus with 18 samples.

Results

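The BCL2 family members examined here are 10 genes that set whether the mitochondrial pathway of cell death is engaged: Bcl2, Bcl2l1, Mcl1, Bcl2a1b, Bax, Bak1, Bcl2l11, Bid, Bbc3 and Pmaip1. They were taken by gene symbol from the 46078 genes of the count table, and all 10 members passed the filter on low counts, which kept 14714 genes. The study measured RNA of type 1 innate lymphoid cells (ILC1s) and natural killer (NK) cells, and its title asks whether retinoic acid receptor activity maintains ILC1s. The libraries come from C57BL/6 mice aged 8 weeks, with 200 sorted cells in each of 18 libraries.

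The 6 groups covered ILC1s of liver, NK cells of liver and ILC1s of spleen, each from control mice with Ncr1-Cre and from mice with Ncr1-Cre and Rosa26-RARalpha403 (RARa403 below), with 3 libraries per group. Ncr1-Cre acts in cells that express NKp46, which both ILC1s and NK cells do, and every group carries it. RARa403 is a truncated retinoic acid receptor alpha that acts as a dominant negative. Sorted cells lacked CD3 and bore NK1.1 and NKp46. Among them NK cells were CD49b+ without CD49a, while ILC1s were IL-7R+ CD49a+ with low CD49b. Nothing in the labels says whether the libraries of a group came from separate mice, so p-values measure only the spread between these libraries.

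Proteins of the BCL2 family meet at the outer mitochondrial membrane. BCL2, BCL-XL (from Bcl2l1), MCL1 and A1 (from the Bcl2a1 genes) hold cells alive by binding their death-promoting relatives. BAX and BAK form the pores that release cytochrome c. The BH3-only proteins BIM (Bcl2l11), BID, PUMA (Bbc3) and NOXA (Pmaip1) carry the death signal by occupying the survival proteins or by activating BAX and BAK. In lymphocytes of this kind, cytokines such as interleukin-15 and interleukin-7 are known to sustain survival proteins, and MCL1 is known to be needed by NK cells.

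Library totals ran from 3452279 to 9038767 counts, so that 3 counts stood for 0.332 to 0.869 CPM. CPM are counts relative to library size. The sort was visible in the RNA: the 10 ILC1 markers summed to 3130 to 3900 CPM in control liver ILC1s and 110 to 236 CPM in control liver NK cells, and the 10 NK markers to at most 582 and to 7340 to 8800 CPM. Library 1 of liver NK RARa403 stood apart from the rest, with 3.55% of its counts in ribosomal RNA genes against at most 0.387% elsewhere. Of the 2735 genes that were high in every other library, 192 (7.02%) had 3 counts or fewer in it. The same count was made for each other library, on its own set of 1785 to 1849 genes high in all the rest. It gave 0 each time. Those sets are smaller because their genes also had to be high in library 1 of liver NK RARa403. Values without it are given beside several of the results that include it. The transcript of the Rosa26 locus, Gt(ROSA)26Sor, had 104 to 1260 counts in control libraries and 0 to 10 in RARa403 libraries 2 and 3. It had at least 365 counts in the libraries labelled RARa403 1 of liver and spleen ILC1s and 0 in that of liver NK cells. Whether this transcript reports the allele was not tested. Xist, an RNA of female cells, had 596 to 1404 counts in library 3 of the control groups. In library 2 of the RARa403 groups it had 925 to 1314, and in all other libraries 0 to 28. Libraries 2 and 3 thus differ in Xist between genotypes at the same number, and the part of sex was not tested. Mean genotype values of the members from libraries 2 and 3 alone are given below beside those from all libraries.

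None of the 10 members passed an adjusted p of 0.05 (edgeR quasi-likelihood test, Benjamini-Hochberg over all genes tested) in any of 10 comparisons. The intervals below show how large a change these libraries could have missed. Across all genes, 0% were past that threshold for RARa403 against control in each population (ILC1s of liver, NK cells, ILC1s of spleen) and in their mean. Without adjustment, 432, 1418, 425 and 931 genes had p under 0.05 in those comparisons, among them 0, 1, 0 and 1 members. DESeq2 called 38, 163, 25 and 90 genes and limma-voom 0, 0, 0 and 12 genes in the same comparisons, with no member among them by either tool. Between control liver ILC1s and NK cells 0.605% of genes were called (63 higher and 26 lower in ILC1s), and between the same cells with RARa403 0.401% (51 higher and 8 lower). Leaving out library 1 of liver NK RARa403 raised these shares to 1.75% and 0.495%, again with 0 members.

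**Figure D1:**
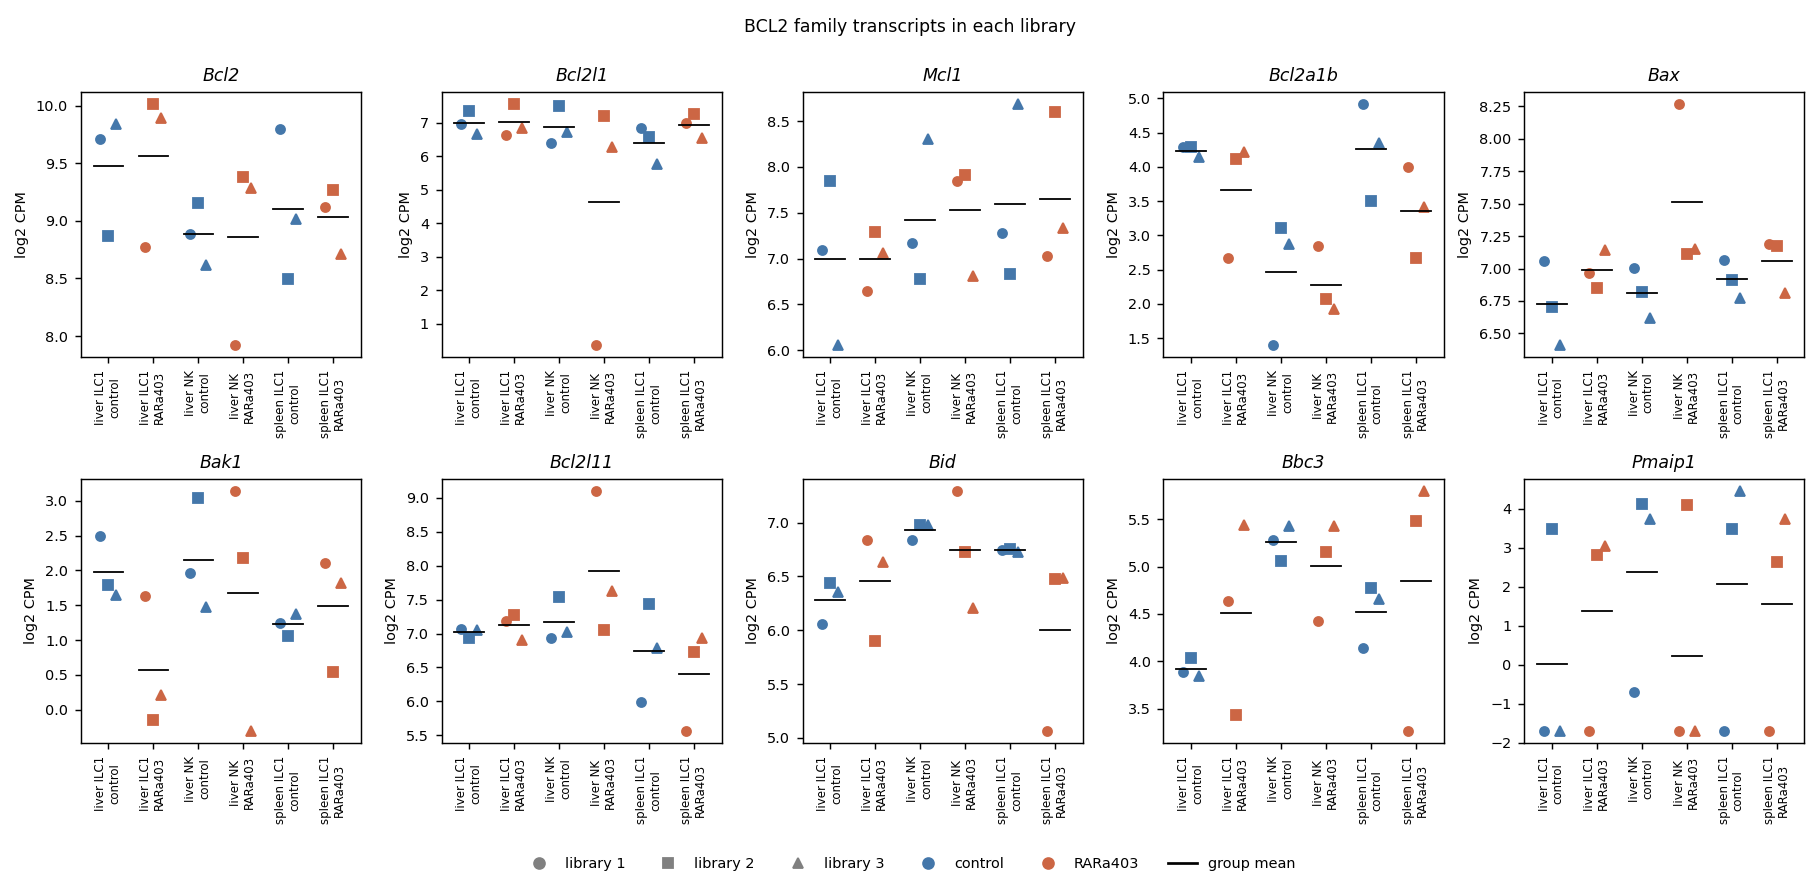
Level of each of the 10 genes in every library, as log2 CPM, with 1 panel per gene and its own axis range. Symbols give the library number, colours the genotype and horizontal lines the mean of 3 libraries. Bcl2l1 in library 1 of liver NK RARa403 (0.36) lies far below the other libraries. Pmaip1 lies far below its remaining values in all 6 libraries numbered 1 and in 2 of the 12 others.

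Bcl2, the survival gene after which the family is named, was read at 9.71, 8.87 and 9.84 log2 CPM in control liver ILC1s and 8.77, 10.01 and 9.90 in RARa403 liver ILC1s. Liver NK cells had 8.88, 9.16 and 8.62 in control and 7.92, 9.38 and 9.29 in RARa403 libraries. Spleen ILC1s had 9.80, 8.50 and 9.02 in control and 9.12, 9.27 and 8.72 in RARa403 libraries. The control and RARa403 libraries of each population overlapped. The mean was 9.48 ± 0.53 (SD, n = 3) in control and 9.56 ± 0.69 (SD, n = 3) in RARa403 liver ILC1s, the 2 highest of the 6 groups. The 6 group means of Bcl2 spanned 0.70 on the log2 scale, and each neighbouring pair in their order lay closer than the larger of the pair's SDs. The same held for every one of the 10 members.

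For Bcl2 the RARa403 effect, as a log2 fold change against control, was 0.12 in liver ILC1s (95% interval -0.77 to 1.02), 0.10 in liver NK cells and -0.15 in spleen ILC1s. Over the 3 populations it averaged 0.02 with an SE of 0.24, an interval from 0.709-fold to 1.45-fold (adjusted p = 1). For this and every other mean RARa403 effect, the fit takes the libraries of the 3 populations as independent. Its SE, interval and p-value do not allow for mice that may be shared between populations. From libraries 2 and 3 alone the Bcl2 effect was 0.51 in liver ILC1s, 0.41 in liver NK cells and 0.23 in spleen ILC1s. The difference of control liver ILC1s minus control liver NK cells was 0.63 (SE 0.43, adjusted p = 0.846), and with RARa403 it was 0.66 (adjusted p = 0.568). The RARa403 effect in liver ILC1s minus that in liver NK cells was 0.03 (interval -1.24 to 1.29). Without library 1 of liver NK RARa403 the Bcl2 effect in liver NK cells was 0.42, the difference between RARa403 liver ILC1s and NK cells 0.34 (adjusted p = 0.941), and the difference between the effects -0.30 (interval -1.37 to 0.78).

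Mcl1 encodes a short-lived survival protein. It was read at 7.09, 7.85 and 6.06 log2 CPM in control liver ILC1s and 6.64, 7.29 and 7.06 with RARa403. Control liver NK cells had 7.17, 6.78 and 8.31, and 7.85, 7.91 and 6.81 were read with RARa403. Control spleen ILC1s had 7.27, 6.83 and 8.68, beside 7.03, 8.60 and 7.34 with RARa403. The spread within groups was wide, and the ranges of every pair of groups overlapped. The mean RARa403 effect on Mcl1 was -0.04 (SE 0.33), with an interval from 0.596-fold to 1.59-fold (adjusted p = 1).

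Bcl2l1, whose main product is BCL-XL, lay between 5.76 and 7.55 log2 CPM in 17 of 18 libraries. Library 1 of liver NK RARa403 held 4 counts of it, or 0.36 log2 CPM. Without that library the RARa403 effect on Bcl2l1 in liver NK cells moved from -0.71 (SE 0.84) to -0.15 (SE 0.40). In liver ILC1s the effect was 0.06 (SE 0.83, adjusted p = 1), with control libraries at 6.96, 7.33 and 6.65 and RARa403 libraries at 6.64, 7.55 and 6.84.

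Bcl2a1b is 1 of several near-identical mouse genes for the survival protein A1. It lies on chromosome 9 at 89199209 to 89207827 (plus strand, GRCm38), beside Bcl2a1a at 88956900 to 88962419 (plus strand) and Bcl2a1d at 88723285 to 88731914 (minus strand). The start of each coding sequence is printed to show how little distinguishes the copies. These are bases 1 to 120 of 519, 5′ to 3′, from the GENCODE transcripts, with capitals at the 7 positions where the copies differ.
Bcl2a1a: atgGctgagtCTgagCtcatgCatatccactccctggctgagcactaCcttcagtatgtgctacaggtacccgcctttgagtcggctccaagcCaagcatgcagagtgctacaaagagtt
Bcl2a1b: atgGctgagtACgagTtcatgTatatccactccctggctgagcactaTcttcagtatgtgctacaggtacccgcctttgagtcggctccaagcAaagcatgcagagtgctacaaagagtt
Bcl2a1d: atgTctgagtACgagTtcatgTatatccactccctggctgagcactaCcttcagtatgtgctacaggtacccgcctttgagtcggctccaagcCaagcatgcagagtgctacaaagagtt
Over all 519 coding bases the copies differ at 12 positions. Bcl2a1b is 98.8% identical to Bcl2a1d (6 differing bases) and 97.9% identical to Bcl2a1a (11 differing bases). Short reads that fall between the differing positions match more than 1 copy, and the sources used here do not give how such reads were counted. The level of Bcl2a1b alone is therefore uncertain.

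Bcl2a1b counts came to 141, 67 and 80 in control liver ILC1s and 39, 113 and 130 with RARa403. Control liver NK cells had 15, 75 and 40, beside 28, 35 and 21 with RARa403, and spleen ILC1s 247, 81 and 114 in control and 101, 37 and 80 with RARa403. On the log2 CPM scale control liver ILC1s, at 4.29, 4.29 and 4.14, lay above all control liver NK libraries, at 1.40, 3.11 and 2.88. The log2 fold change of Bcl2a1b was 1.65 (SE 0.67, adjusted p = 0.544). With RARa403 the same contrast gave 1.54 (adjusted p = 0.377) and 1.91 (adjusted p = 0.531) without library 1 of liver NK RARa403. Library 1 of RARa403 liver ILC1s (2.67) lay below that of liver NK cells (2.84).

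Bcl2a1b held 16.7% to 82.4% of the counts of the 3 copies, the highest share in library 1 of liver NK RARa403. Bcl2a1d held most of the rest, and Bcl2a1a was at 4 counts or fewer except for 20 in library 1 of control liver ILC1s and 72 in library 3 of control spleen ILC1s. Added together, the copies gave 844, 167 and 270 counts in control liver ILC1s and 89, 330 and 243 with RARa403. The sums were 59, 133 and 112 in control and 34, 92 and 70 in RARa403 liver NK cells, and 753, 198 and 305 in control and 353, 142 and 220 in RARa403 spleen ILC1s. As log2 CPM, the summed level was 6.11 ± 0.66 in control liver ILC1s, 5.68 ± 0.87 in control spleen ILC1s and 3.83 ± 0.55 in control liver NK cells (SD, n = 3 each).

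The summed copies and the fits that leave libraries out of them were chosen after the data were seen. They differed between control liver ILC1s and NK cells by 2.34 (SE 0.58, adjusted p = 0.102). Without library 1 of liver NK RARa403 the difference was 2.34 with an adjusted p of 0.0389. That library is in neither group, so it enters here only through the shared fit: the spread, the scaling factors and the genes that pass the filter. With it out and 1 further library of the 2 groups left out, the adjusted p ran from 0.0445 to 0.191 and the difference from 1.86 to 2.63. With the library number as a block and all libraries in, the adjusted p was 0.186. The summed levels of these 2 groups did not overlap in either case.

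In liver ILC1s the summed copies differed between RARa403 and control by -1.18 (SE 0.56, adjusted p = 1). Leaving out each of the 6 libraries in turn gave -0.71 to -1.61. The value was -0.71 without library 1 of control liver ILC1s and -0.82 without the library labelled RARa403 1, and it was -0.35 without any library numbered 1. The first of these libraries held the most proliferation markers (645 CPM against 270 and 382 in the other control liver ILC1 libraries). The second held 2150 CPM of NK markers against 401 and 670 in the other RARa403 liver ILC1 libraries. The part of either in the result was not tested. The mean RARa403 effect on the summed copies was -0.80 (adjusted p = 0.762), and -0.56 (adjusted p = 0.719) from libraries 2 and 3 alone.

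**Figure D2:**
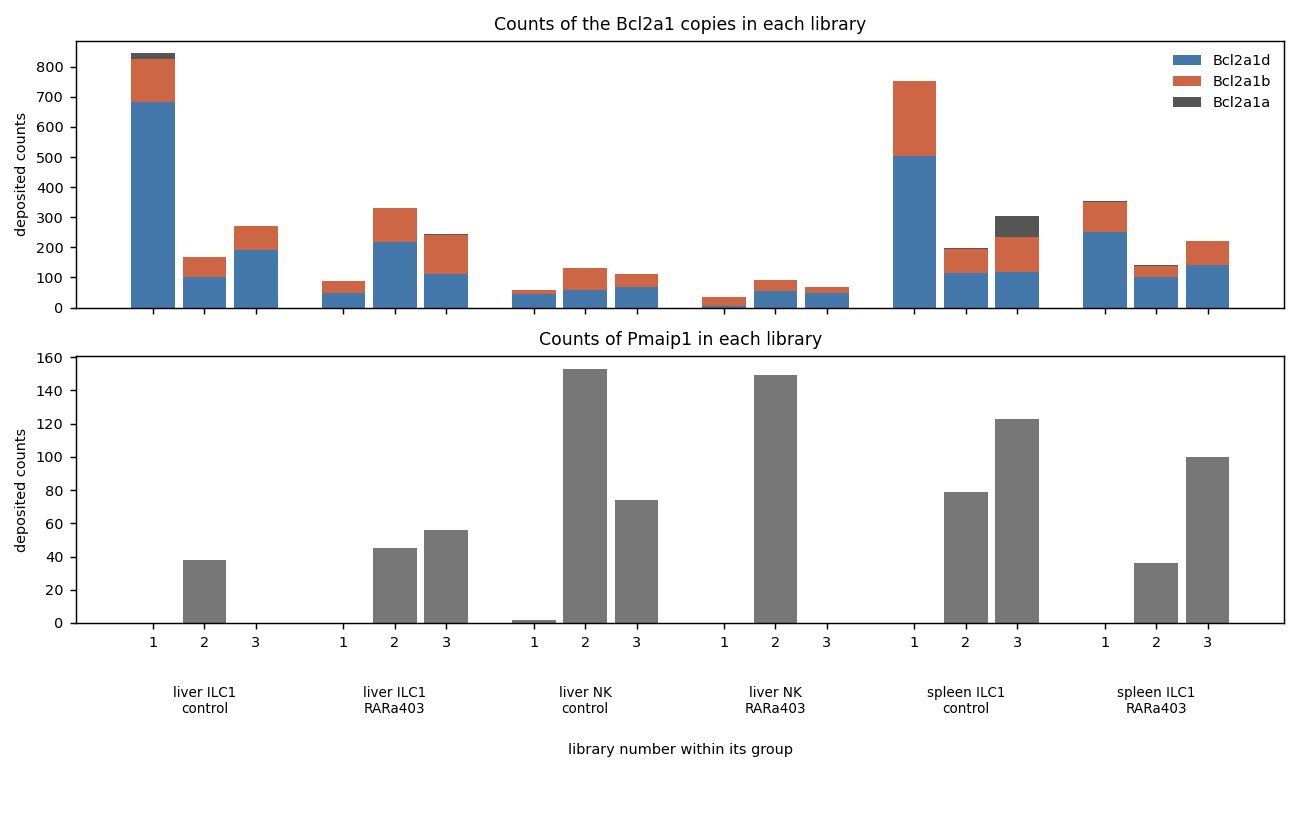
Deposited counts in each of the 18 libraries, grouped by population and genotype. The upper panel stacks the 3 Bcl2a1 copies, whose sums reach 844 in control liver ILC1s and at most 133 in liver NK cells. The lower panel shows Pmaip1, with 0 to 2 counts in every library numbered 1.

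Bax encodes a pore-forming death effector. Liver ILC1s had 7.06, 6.70 and 6.41 log2 CPM in control and 6.97, 6.85 and 7.14 in RARa403 libraries. Liver NK cells had 7.01, 6.82 and 6.62 in control and 8.27, 7.11 and 7.15 in RARa403 libraries. Spleen ILC1s had 7.06, 6.91 and 6.77, beside 7.19, 7.18 and 6.81. The 3 RARa403 liver NK libraries lay above the 3 controls, most of all library 1. The log2 fold change of Bax there was 0.79 (SE 0.31, adjusted p = 0.454), and 0.30 (SE 0.22) without library 1. The mean RARa403 effect on Bax was 0.40 (SE 0.18, adjusted p = 0.771), and 0.23 (SE 0.12) without that library. In liver ILC1s the effect was 0.24, with an interval from 0.751-fold to 1.87-fold.

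Bak1, for the second pore-forming protein, was low, with 3 to 71 counts per library. Control liver ILC1s held 39, 11 and 13 counts and RARa403 liver ILC1s 18, 4 and 6. As log2 CPM the control libraries (2.49, 1.79, 1.64) and RARa403 libraries (1.64, -0.14, 0.21) only just failed to overlap. The log2 fold change was -1.40 with an interval from -3.69 to 0.89 (adjusted p = 1). In liver NK cells the Bak1 effect was -0.08 with all libraries and -0.97 without library 1.

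Bcl2l11 encodes BIM, which binds all of the survival proteins. Its level in liver ILC1s was 7.07, 6.94 and 7.06 log2 CPM in control and 7.18, 7.28 and 6.91 in RARa403 libraries. Liver NK cells had 6.94, 7.54 and 7.02 without RARa403 and 9.11, 7.06 and 7.62 with it. Spleen ILC1s had 5.99, 7.44 and 6.79 without it and 5.56, 6.73 and 6.93 with it. All ranges within a population overlapped, and library 1 of liver NK RARa403 was the highest of 18. The RARa403 effect on Bcl2l11 in liver NK cells was 1.01 (SE 0.48, adjusted p = 0.524), and 0.16 (SE 0.39) without that library. In liver ILC1s it was 0.11 (interval -0.91 to 1.13).

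Bid, whose protein links death receptors and granzyme B to mitochondria, was read at 6.06, 6.44 and 6.35 log2 CPM in control liver ILC1s and 6.83, 6.98 and 6.98 in control liver NK cells. These ranges did not overlap, and the log2 fold change of ILC1s against NK cells was -0.64 (SE 0.38, adjusted p = 0.757). With RARa403 the libraries overlapped, at 6.84, 5.90 and 6.64 in liver ILC1s and 7.30, 6.73 and 6.21 in liver NK cells. Control spleen ILC1s were at 6.75, 6.75 and 6.73, above every RARa403 spleen ILC1 library, at 5.06, 6.48 and 6.48. The RARa403 effect on Bid in spleen ILC1s was -0.60 (SE 0.38, adjusted p = 1), and -0.27 from libraries 2 and 3 alone.

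Bbc3, for the p53-responsive protein PUMA, was read at 3.88, 4.03 and 3.85 log2 CPM in control liver ILC1s and 5.28, 5.05 and 5.43 in control liver NK cells. The control ILC1 libraries were all lower, by -1.36 as a log2 fold change (SE 0.59, adjusted p = 0.601). When only those 2 groups entered the fit the adjusted p of Bbc3 was 0.0972, the lowest that any member reached under any alternative. RARa403 libraries overlapped, at 4.64, 3.43 and 5.44 in liver ILC1s and 4.43, 5.15 and 5.43 in liver NK cells, and their difference was -0.34 (adjusted p = 0.88), or -0.56 (adjusted p = 0.929) without library 1 of liver NK RARa403. The change of this difference with genotype was 1.02 (interval -0.74 to 2.77), or 0.81 without that library, so a difference between genotypes was not shown. Spleen ILC1s held 4.14, 4.77 and 4.65 in control and 3.26, 5.48 and 5.80 with RARa403.

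Pmaip1 encodes NOXA, which binds MCL1 and A1. Its counts were 0, 38 and 0 in control liver ILC1s, 0, 45 and 56 in RARa403 liver ILC1s, 2, 153 and 74 in control liver NK cells and 0, 149 and 0 in RARa403 liver NK cells. Spleen ILC1s held 0, 79 and 123 in control and 0, 36 and 100 with RARa403. The gene was thus at 2 counts or fewer in 8 libraries and above 30 in 10, with nothing between. All 6 libraries numbered 1 were among the 8, against 2 of the 12 other libraries, and these 8 came from all 6 groups. The description codes of the 6 libraries numbered 1 open with 1, and those of the 12 others open with 2. The labels do not say what this opening number stands for, and the main fit has no term for it. In the 7 libraries with 0 counts, up to 0.365 to 0.659 CPM are allowed, depending on the library's total, for counting error only. The mean RARa403 effect on Pmaip1 was -0.39 with an SE of 1.39.

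Group ranges that do not overlap are common among all genes, so the members were read against that share. Between genotypes, 1 of 10 members did not overlap in liver ILC1s (Bak1, lower with RARa403) against 9.51% of all genes, 1 in liver NK cells (Bax, higher) against 8.5%, and 1 in spleen ILC1s (Bid, lower) against 8.98%. Without library 1, 3 members did not overlap in liver NK cells against 17.4% of genes. Control liver ILC1s and NK cells did not overlap for Bcl2a1b (higher in ILC1s), Bid and Bbc3 (both lower) against 16.9% of genes. With RARa403 that held for 0 members against 12.3% of genes, or 1 member against 24.2% without library 1. Control spleen and liver ILC1s did not overlap for Bid and Bbc3 (higher in spleen) and Bak1 (lower) against 8.96% of genes, and RARa403 spleen and liver ILC1s for 0 members against 8.96%. The edgeR test called 0% of genes in either organ comparison (468 and 419 genes at an unadjusted p under 0.05), and 0% in both tests of a difference between RARa403 effects (913 and 397 genes). DESeq2 called 38 and 41 genes between organs and 56 and 22 for the differences, and limma-voom 0 in all 4.

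The median log2 fold change of the 10 members under RARa403 was 0.115 in liver ILC1s, -0.10 in liver NK cells and -0.08 in spleen ILC1s, beside medians over all genes of 0, 0 and -0.003. Between control liver ILC1s and NK cells it was -0.24 beside 0.03.

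From libraries 2 and 3 alone, the mean RARa403 effect over the 3 populations was 0.38 for Bcl2, 0.19 for Bcl2l1, -0.09 for Mcl1 and -0.68 for Bcl2a1b among the survival genes. Among the death genes it was 0.33 for Bax, -1.01 for Bak1, -0.06 for Bcl2l11, -0.29 for Bid, 0.60 for Bbc3 and -0.40 for Pmaip1. Both control and RARa403 groups hold 2 libraries there, and none of these values passed the threshold. In liver ILC1s the Bak1 effect was -2.02 in these libraries and the Bbc3 effect 0.84.

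**Figure D3:**
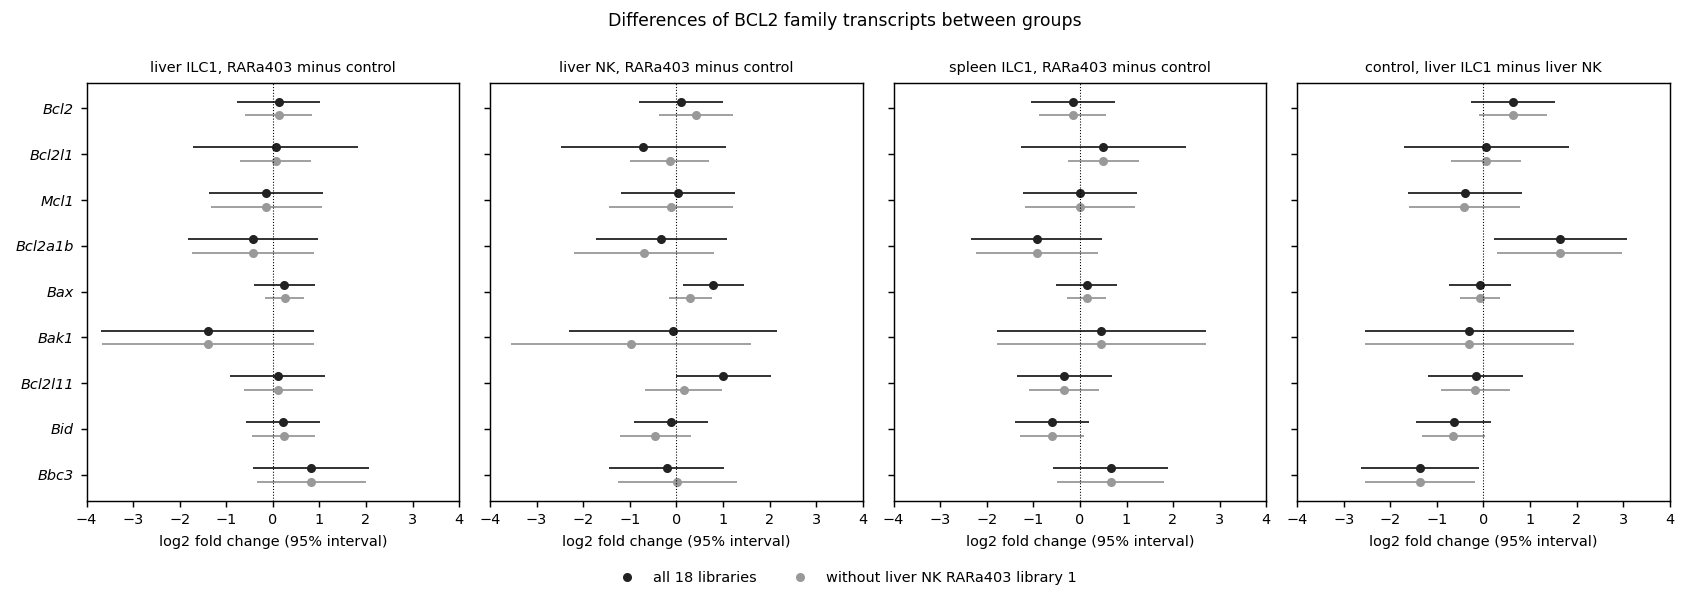
Log2 fold changes (points) with 95% intervals (lines) for 9 members in the RARa403 comparison of each population and between control liver ILC1s and NK cells, with all libraries (black) and without library 1 of liver NK RARa403 (grey). Pmaip1 is left out because its intervals span more than the axis. Bax in liver NK cells moves from 0.79 to 0.30 and Bcl2l11 from 1.01 to 0.16 without that library.

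Levels can be compared between genes only per length, as CPM per kilobase of exon (RPKM). In control liver ILC1s Bcl2 stood at 81.0 ± 26.2 RPKM, Bax at 68.0 ± 15.4, Mcl1 at 42.2 ± 24.1 and Bcl2l1 at 28.0 ± 6.7 (SD, n = 3). Bcl2a1b stood at 22.8 RPKM, Bid at 22.0, Bcl2l11 at 16.2, Bbc3 at 7.00, Bak1 at 1.56 and Pmaip1 at 1.33. The order differed between libraries: in library 2 Mcl1 (67.4) stood above Bcl2 (51.2). In control liver NK cells Bax stood at 71.7 ± 9.70 RPKM, Mcl1 at 55.5 ± 32.5 and Bcl2 at 52.2 ± 9.72 (SD, n = 3), and in library 3 Mcl1 (92.6) stood above Bax (62.0). As a share of the summed RPKM of the 10 members, the 4 survival genes made up 60.1% in control liver ILC1s (58.5% to 61.7%) and 48.7% in control liver NK cells (43.6% to 54.5%). In RARa403 liver ILC1s that share was 54.3%, with libraries from 42.7% to 65.3% on either side of the control values. Spleen ILC1s had 54.9% in control and 54.0% in RARa403 libraries. RARa403 liver NK cells had 40.4%, with libraries from 24.2% to 53.2%. Bcl2a1d, a survival gene that is not among the 10 members, is left out of this order and these shares. It stood at 107.9, 33.2 and 47.7 RPKM in control liver ILC1s, above Bcl2 (91.6) in library 1. In control liver NK cells it stood at 7.93, 7.47 and 14.3.

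The per-length log2 ratio of Bcl2 to Bcl2l11 sets a survival gene against a BH3-only gene with a known role in lymphocyte death. It was 2.45, 1.75 and 2.60 in control and 1.40, 2.55 and 2.80 in RARa403 liver ILC1s, which overlapped. Control liver NK cells had 1.76, 1.42 and 1.41, just reaching the lowest control liver ILC1 library. RARa403 liver NK cells had -1.38, 2.14 and 1.48, and library 1 alone was below 0. RNA ratios do not measure the proteins.

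**Figure D4:**
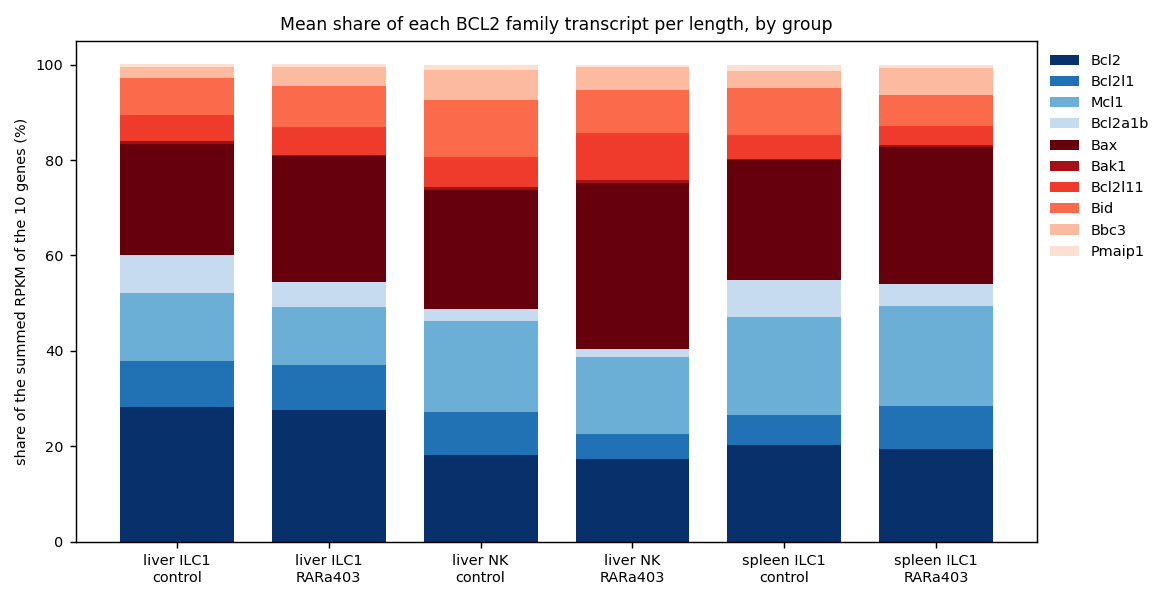
Mean share of each of the 10 members in their summed RPKM, in percent, by group (3 libraries each), with survival genes in blue and death genes in red. The survival genes among the members make up 60.1% in control liver ILC1s and 48.7% in control liver NK cells. Bcl2a1d is not included.

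A list of 16 further family members was read in the same way, and 10 of them passed the filter. In none of the 10 comparisons with all libraries did a gene of this list pass the threshold. Bik, a BH3-only gene, had 11 to 17 counts in control liver ILC1s, 28 to 30 in control spleen ILC1s and 0 in all 3 control liver NK libraries. Its mean of 3.24 CPM in control liver ILC1s was at least 7.33-fold higher than the 0.441 CPM that 3 counts per library stand for in control liver NK cells. In the mean RARa403 effect Bik and Bcl2a1d had adjusted p of 0.764 and 0.772. The adjusted p of Bik between control liver ILC1s and NK cells was 0.0964, and 0.0331 without library 1 of liver NK RARa403. With 1 further library left out it ran from 0.0582 to 0.126. With RARa403, Bik had 18 to 77 counts in liver ILC1s and 0 to 5 in liver NK cells. Between control liver ILC1s and NK cells Bcl2a1d had the next smallest p, with a log2 fold change of 2.67 (adjusted p = 0.206). Without library 1 of liver NK RARa403 the adjusted p of Bcl2a1d was 0.0565. Bnip3l, a mitophagy receptor, lay between 7.82 and 7.97 log2 CPM in the group means, and Bmf, Hrk, Bcl2l10, Bcl2l14, Bcl2a1a and Bcl2a1c did not pass the filter.

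Genes around the family were read from 6 lists. Of 17 genes of survival cytokine signalling, 1 was called between control liver ILC1s and NK cells, Socs2, a feedback inhibitor induced by STAT5. Socs2 was 4.68 higher on the log2 scale in control liver ILC1s (SE 0.53, adjusted p = 0.000646) and 3.49 higher in RARa403 liver ILC1s (adjusted p = 0.00715) than in the matching NK cells. Its level was 7.99 ± 0.41 log2 CPM in control liver ILC1s and 3.34 ± 0.48 in control liver NK cells (SD, n = 3). Without library 1 of liver NK RARa403, Il7r, the interleukin-7 receptor used in the sort, and Jak1, a kinase of cytokine receptors, were also called, both at an adjusted p of 0.0498, with log2 fold changes of 2.69 and -0.99 with all libraries. In the mean RARa403 effect Il7r had a value of 1.10 (SE 0.40, adjusted p = 0.764) and Pim1, a survival kinase gene, -0.53 (adjusted p = 0.771). The median of the list between control liver ILC1s and NK cells was 0.13 beside 0.03 over all genes.

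Among 12 death receptor genes 0 were called. Tnfsf10, which encodes the death ligand TRAIL and marks ILC1s, had 1661, 747 and 1436 counts in control liver ILC1s and 95, 171 and 125 in control liver NK cells. Its log2 fold change was 3.75 (SE 0.91, adjusted p = 0.0872). Library 1 of liver NK RARa403 held 1 count of Tnfsf10, and without it the adjusted p was 0.000513. With 1 further library left out the adjusted p of Tnfsf10 ran from 0.00143 to 0.00607. Fasl, the Fas ligand, had a mean RARa403 effect of -0.51 (SE 0.19, adjusted p = 0.764). Tnfrsf1a, a receptor for tumour necrosis factor, differed by 0.70 between control liver ILC1s and NK cells (adjusted p = 0.624). The median of the list in that comparison was -0.18.

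The other lists gave 0 calls in every comparison with all libraries. Between control liver ILC1s and NK cells their medians were -0.29 for 10 apoptosome and caspase genes, -0.04 for 11 genes of mitochondrial release and inhibition of apoptosis, -0.17 for 12 p53 and FOXO regulators and -0.38 for 6 tested regulators of MCL1 stability. For the mean RARa403 effect they were -0.22, -0.07, 0.01 and 0.09, beside 0.01 over all genes. The initiator caspase gene Casp8 had a mean RARa403 effect of -0.23 (adjusted p = 0.807) and the cytochrome c gene Cycs one of -0.37 (adjusted p = 0.899), while Casp9, the caspase of the apoptosome, differed by -0.90 between control liver ILC1s and NK cells (adjusted p = 1). In that cell type comparison Htra2, a protease released from mitochondria, had 0.41 and Xiap, a caspase inhibitor, -0.45 (both adjusted p = 1). Birc6 and Endog, an inhibitor of apoptosis and a mitochondrial nuclease, had mean RARa403 effects of 0.65 (adjusted p = 0.805) and 0.51 (adjusted p = 0.969). Foxo3, for a transcription factor that can induce Bcl2l11 and Bbc3, differed by 1.30 between control liver ILC1s and NK cells (SE 0.55, adjusted p = 0.584), and Trp53 by 0.39 (adjusted p = 0.783). The p53 target genes Sesn1 and Cdkn1a had mean RARa403 effects of -0.63 (adjusted p = 0.772) and 1.12 (adjusted p = 0.843). Between control liver ILC1s and NK cells Fbxw7, a ubiquitin ligase component that targets MCL1, differed by -1.41 (adjusted p = 0.726). Without library 1 of liver NK RARa403 the adjusted p of Fbxw7 was 0.0537. In the same comparison with all libraries Usp9x, a deubiquitinase of MCL1, differed by -0.35 (adjusted p = 1). Huwe1, an MCL1 ubiquitin ligase, had a mean RARa403 effect of 0.63 (adjusted p = 0.772) and the kinase gene Gsk3b one of 0.47 (adjusted p = 0.893). In values added after the data were seen, several of these mean effects moved when library 1 of liver NK RARa403 was left out: Birc6 to -0.04, Huwe1 to 0.15, Gsk3b to 0.08, Cdkn1a to 0.50, Endog to 0.36, Sesn1 to -0.47 and Cycs to -0.22. Casp8 had -0.24 without it.

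Other cells in the sort were read from marker lists. The 8 T cell markers summed to 184 to 497 CPM in control liver ILC1s and 11.1 to 27.6 CPM in control liver NK cells, where Cd8a, Cd8b1 and Cd5 were at 0. The 8 myeloid markers summed to 346 to 533 and 200 to 334 CPM, with S100a8 and S100a9 at 0 in both groups. The 6 B cell markers summed to 425 to 795 and 211 to 237 CPM, with Ms4a1 at 0 in both. The 5 erythroid markers summed to 2360, 0 and 0.22 CPM in libraries 1 to 3 of control liver ILC1s. Library 3 of control spleen ILC1s, with 72 counts of Bcl2a1a, held 2677 CPM of B cell and 714 CPM of myeloid markers. The other control spleen libraries held at most 647 and 327 CPM. The part of these cells in either library was not tested. Bcl2a1 genes are also expressed in myeloid cells, and the part of myeloid cells in the ILC1 against NK differences was not tested. In bulk RNA, fewer cells of a type and less RNA per cell cannot be told apart.

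Genes whose pattern was most like that of a member were sought among 5633 genes over the 17 libraries left after library 1 of liver NK RARa403. Bcl2 was closest to Ptger4, a prostaglandin E2 receptor gene (Pearson r 0.802, Spearman rho 0.787), then Cnot2 (r 0.753) and Ankrd46 (r 0.728). Mcl1 was closest to Ankrd13a (r 0.919), Gnb1 (r 0.881) and Tnks2 (r 0.865). Bcl2l11 was closest to Rab6a (r 0.881, rho 0.659), Prkx (r 0.869, rho 0.547) and March7 (r 0.851, rho 0.515). These are the highest of 5633 values across libraries that share sorts and depth, and are given as a description.

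Since retinoic acid receptors bind repeats of the half-site AGGTCA, promoter windows of 300 bases from RefSeq (GRCm38.p6), most of it upstream of the start, were searched for it on both strands. Of 14 windows of 9 members, 1 held it, on Bcl2l1, beside 16.3% of the 32851 windows of all genes. A match is a description of letters and not a binding site.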

How the data were processed

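Gene counts of 18 libraries, made with a SMART-seq HT kit from 200 sorted cells each per the labels, were used as the authors deposited them, as whole-number counts per gene. Per the submitters' processing notes the tools were fastp 0.23.0, HISAT2 2.1.0 and featureCounts of Subread 1.6.5, with build mm10. The sources used here do not give the annotation, the strand setting or how multi-mapping reads were counted. Symbols came from GENCODE M21 for 45229 of 46078 genes, and 0 columns were left unassigned.

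Counts were tested with edgeR 4.0.16 in R 4.3.3 (limma 3.58.1): filterByExpr with a minimum count of 10, TMM scaling, 1 quasi-likelihood fit with a mean per group, and Benjamini-Hochberg adjustment over 14714 genes within each comparison, at 0.05. The common biological coefficient of variation was 0.862. Log2 CPM used a prior count of 2, and RPKM used the union of exons. Each SE was derived from the test, as the absolute log2 fold change divided by the square root of the quasi-likelihood F statistic. The 95% intervals extend from the log2 fold change by this SE times a t quantile. The steps were tested on simulated data. Alternatives included DESeq2 1.42.0, limma-voom, RLE factors, library totals, no filter, libraries 2 and 3 only, and each library left out.

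Same-numbered libraries deviated together in 2 comparisons, control liver ILC1s against NK cells (r 0.256, 0.103 and 0.199) and control spleen against liver ILC1s (r 0.162, 0.13 and 0.134). There the numbers were taken as pairing the libraries, from this check and not from the labels.

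All 10 members are reported. From each pathway list the genes past the threshold are named, or otherwise the 2 with the smallest p in control liver ILC1s against NK cells and in the mean RARa403 effect. Members and lists were chosen with earlier results of these data known.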

Additional observations from a re-analysis of the deposited data

How the results depend on the processing

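No member passed the threshold under any setting tried. Of 1790 values of the 10 members in 10 comparisons under alternatives, 1657 kept their direction and 133 changed sign with neither value past the threshold. The count of members past the threshold stayed at 0 with each library left out (lowest 0, highest 0). The lowest adjusted p values were 0.0972 for Bbc3 with only the 2 control liver groups in the fit and 0.131 for Bcl2a1b by DESeq2, both for control liver ILC1s against NK cells. Over all alternatives of that comparison the adjusted p ran from 0.0972 to 1 for Bbc3 and from 0.131 to 0.981 for Bcl2a1b.

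Counts over all genes moved more. Between control liver ILC1s and NK cells, the 89 genes became 431 by DESeq2, 479 by limma-voom, 355 with no filter on low counts, 221 from libraries 2 and 3, 343 with only those 2 groups and 290 without library 1 of liver NK RARa403, but 18 to 55 when 1 library of the 2 groups was left out. With RARa403, the 59 genes became 594, 217, 794, 162, 0 and 82 in the same order, and 18 to 254 over the libraries left out in turn. In the other comparisons, where edgeR called 0 genes, no filter gave 32 to 523. The cause was not tested.

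With the replicate block the counts were 69 and 34 genes, and 0 members. The replicate block gave each library number 1 effect shared by all 18 libraries of both genotypes. It was therefore not a paired test within the control groups. The numbers were taken as pairing the libraries in control liver ILC1s against NK cells and in control spleen against liver ILC1s. There no member was called with the block or without it. In the other comparisons the numbers were not taken as pairing the libraries. Each library still correlated best with its own number between RARa403 liver ILC1s and NK cells (r 0.0288, 0.0479 and 0.0246). Library 2 of every RARa403 group also had high Xist (925 to 1314 counts), against 0 to 16 in RARa403 libraries 1 and 3. The description codes of RARa403 libraries with the same number also share their opening and closing digits across populations. Whether RARa403 libraries with the same number came from the same mice was not tested. Scaling by library totals moved the median of all genes by over 0.1 on the log2 scale in 3 comparisons, and called 0 members.

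At these depths 3 counts stand for 0.332 to 0.869 CPM, beside 3 to 71 counts per library of Bak1 and 0 counts of Pmaip1 in 7 libraries. With 3 libraries per group, the interval of the RARa403 effect in liver ILC1s ran from 0.585-fold to 2.03-fold for Bcl2 and from 0.384-fold to 2.1-fold for Mcl1.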
